A study of Mus musculus with 4 samples.

Results

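Genes of the red cell lineage, covering the globins, their transcription factors, the haem and iron genes and the red cell membrane, were followed in lineage-negative mouse bone marrow, that is, marrow from which cells bearing mature lineage antigens had been removed. The members were 37 genes chosen by name, and every probe listed under one of these names was taken. Of the 37, 34 had a probe, with 53 probes among the 26512 on the array. Spna1, Car1 and Zfpm1 are not analysed here. Probes needed a detection p under 0.05 on 2 or more arrays, a filter passed by 37 probes of 28 members and by 14178 probes in all. The 2 samples labelled WT FLT3-ITD had received 48 h of signalling by FLT3-ITD, an acute myeloid leukaemia form of the kinase receptor FLT3 that carries an internal tandem duplication. The 2 control samples, labelled WT pMIG, carried the empty vector pMIG, and no time is given for them in the sources used here. All 4 were wild type (WT) and came from bone marrow, and how the vector was delivered, or whether carrying cells were sorted, is not given in the sources used here. The labels do not say that replicates are separate animals or cultures, and the spread behind each p-value may therefore be technical.

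Red cell precursors switch on globin and haem synthesis together. The transcription factors GATA1, TAL1 and KLF1 act at globin, haem and membrane genes, iron enters through the transferrin receptor, and haem is built in steps that begin and end in the mitochondrion. The late products of the lineage, among them the erythroid enzyme ALAS2 and the membrane skeleton proteins, accumulate as precursors mature, whereas several early factors are shared with megakaryocytes and mast cells.

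The arrays were alike in quality, with 51.5% to 53.5% of probes detected on each and a median intensity of 103.1 to 107.9. Replicates correlated across probes at r = 0.991 in FLT3-ITD and 0.990 in pMIG, where probes are not independent replicates. Flt3 itself went undetected on all 4 arrays, and since the position of its probe is unknown here the vector could not be checked by it. Of 15 stem and progenitor genes listed as markers, all 13 with a probe passed the detection filter, against 9948 of 17034 genes in the whole series. Some of these were near background. Slamf1 was detected on 1 array of each group, at 114.6 and 94.6 in FLT3-ITD against 104.9 and 114.2 in pMIG. All 13 with a probe of the 14 neutrophil and monocyte markers were detected too. Among these the granule gene Ltf had 36364 and 36043 in FLT3-ITD against 31953 and 32413 in pMIG. Cd3e, Cd4 and Cd8a, surface antigens of mature T cells, were not detected. Cd3d and Nkg7 of the T and NK list and Itgam and Ptprc of the lineage antigen list were detected on all 4 arrays. Ptprc is not confined to mature cells. Nkg7, a granule gene of cytotoxic cells, was bright, at 2808 and 3131 in FLT3-ITD against 4241 and 4157 in pMIG.

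The label of the gene group fitted the data only in part. The adult globin genes Hba-a1 and Hbb-b1 were detected on all 4 arrays, at intensities of 266.0 to 522.9 and 507.4 to 730.9. Klf1 and Icam4 were detected on all 4 arrays too, and Hbb-b2 on 2. Several other late red cell products were at or below the detection limit. The probes of Alas2, the erythroid form of the first haem synthesis enzyme, of the protein 4.2 gene Epb4.2, of the adducin gene Add2, of the Rhesus antigen gene Rhd and of the erythroid ubiquitin ligase gene Trim10 did not pass the detection filter. The Alas2 probe, detected on 1 of the 4 arrays, had an intensity of 101.0 and 100.2 in FLT3-ITD, against 108.3 and 97.9 in pMIG. The ferritin light chain gene Ftl1, the sixth member with no probe past the filter, had 83.2 and 92.0 in FLT3-ITD, against 102.2 and 99.0 in pMIG, and was detected on none, although ferritin light chain is made by most cells. Nfe2, Alas1, Urod, Tfrc and Fth1, which progenitors or most cells also use, had probes of high signal. Levels of different probes are not comparable, so this does not rank the genes by expression.

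Across the group, 0 of the 37 probes passed an adjusted p of 0.05 (limma, Benjamini-Hochberg adjustment over all 14178 probes), against 0.106% of all probes tested, and all 15 probes called in the whole table were higher in FLT3-ITD. At an unadjusted p under 0.05 there were 9 member probes, against 16.7% of all probes. In limma with a variance trend and robust fit, which lets the shared spread depend on signal, 6 member probes passed, against 8.34% of all probes. Of these, 3 were higher, against 4.34% of all probes, and 3 lower, against 4%. The 3 higher were probes of Hba-a1, Hbb-b1 and Fth1, and the 3 lower were probes of Aqp1, Hebp1 and Alas1. That count of 6 was 3 without either FLT3-ITD array and 4 without either pMIG array. Without background correction 3 member probes passed (Hba-a1, Hebp1 and Aqp1), against 6.79% of all probes. Both FLT3-ITD arrays lay beyond both pMIG arrays for 23 member probes, against 49.4% of all probes tested, with 11 higher, against 23.8%, and 12 lower, against 25.6%. The median log2 difference was -0.04 over the member probes, in a range of -0.70 to 1.29, and -0.01 over all probes tested. Read without regard to sign, the median difference was 0.26 over member probes and 0.19 over all probes. In bulk samples such as these, fewer cells of a type and less RNA per cell cannot be told apart. Of the 37 probes, 32 were detected on all 4 arrays, and 2 were detected only in one of the groups, Ank1 in pMIG and Slc4a1 in FLT3-ITD. These 2 could pass the filter only through the group where they were brighter. Leaving out 1 array moved the difference by over 1.5 times for 24 of the 37 probes, none of them among the 6 that passed in the trend and robust fit. A small gap between replicates favours both passing and a stable difference, so this is no separate support for the 6.

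**Figure D1:**
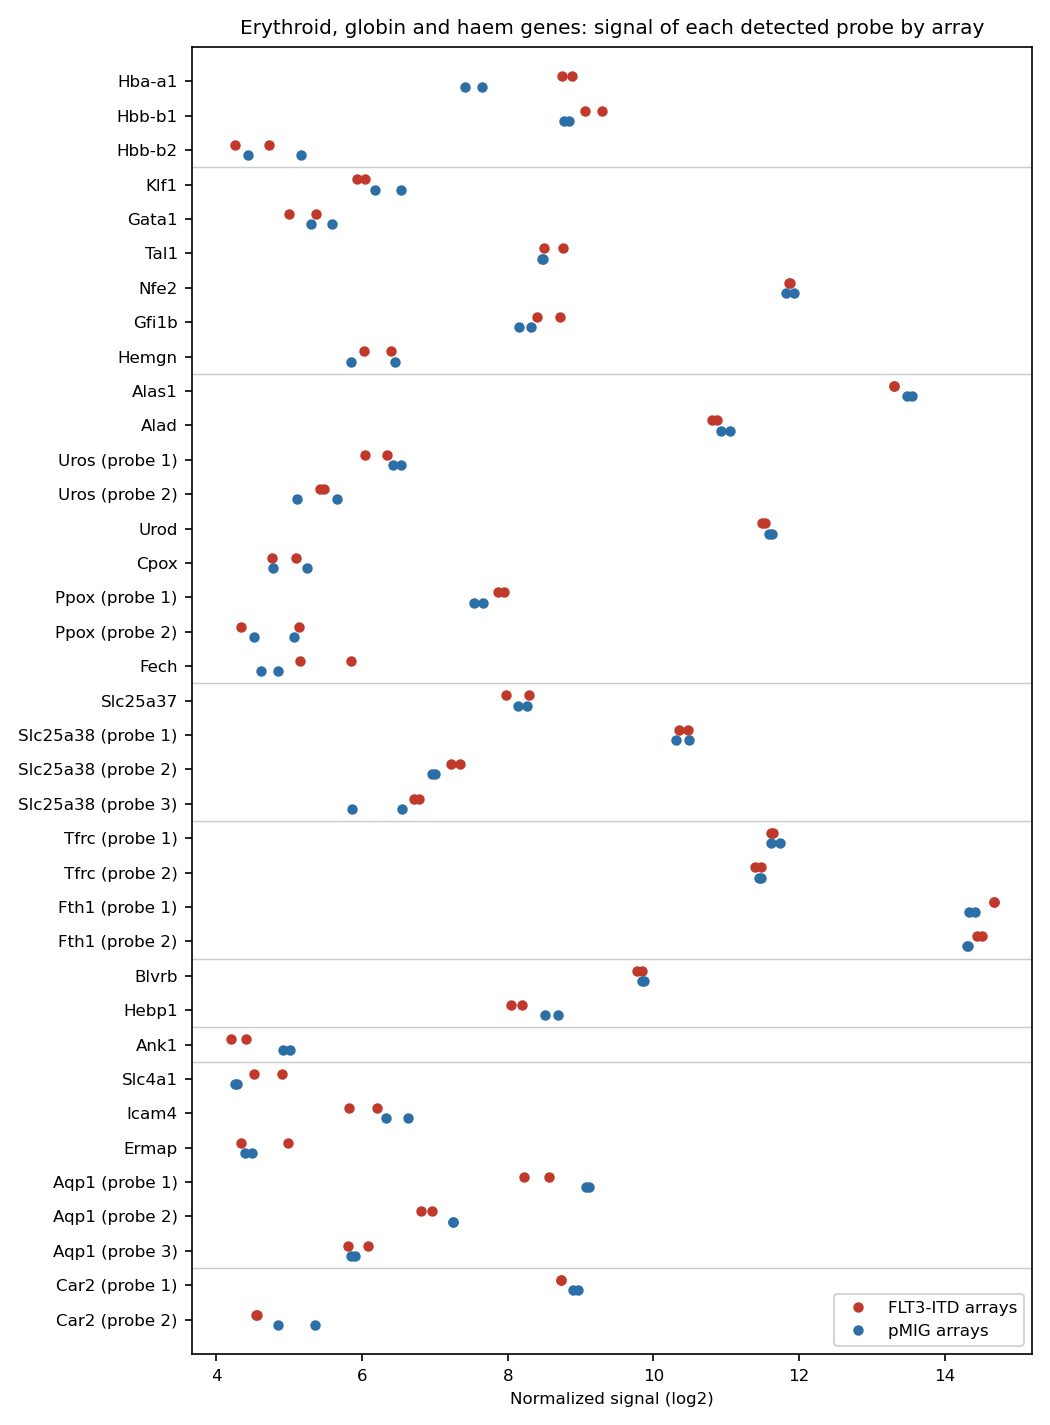
Normalized signal on a log2 scale (horizontal axis) for each of the 37 detected probes (rows, in blocks by role), with 2 FLT3-ITD arrays in red above 2 pMIG arrays in blue. The Hba-a1 points stand apart, with 8.75 and 8.89 in FLT3-ITD against 7.42 and 7.65 in pMIG, while those of Nfe2 and Tfrc lie together; levels of different probes are not comparable with each other.

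Among the globins, Hba-a1, which encodes the adult α-globin chain (probe ILMN_1212702), had the largest difference of any member. Its deposited intensity was 521.1 and 522.9 in FLT3-ITD, against 272.4 and 266.0 in pMIG. The pairs were far apart, with each differing by a few units within a group. After normalization it averaged 8.82 ± 0.10 in FLT3-ITD and 7.53 ± 0.16 in pMIG (log2 signal, SD, n = 2 each), a 2.44-fold higher level. The log2 difference of 1.29 (SE 0.14, 95% interval 0.91 to 1.66) did not pass in limma (adjusted p = 0.0783), and ranked 74th highest among the 14178 probes. With the variance trend and robust fit its adjusted p was 1.49e-07. In that fit it stayed under the threshold whichever array was left out (adjusted p 4.52e-08 to 0.00195), and without background correction its difference was 1.00 (adjusted p = 6.41e-06). It was 1 of only 163 tested probes with a difference over 1 in size.

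The mouse has another α-globin gene, Hba-a2, almost a copy of Hba-a1, and no probe was listed under that name. In the RefSeq promoter table the 300-base windows of these genes, from 250 bases before to 50 after the start, share an unbroken run of 297 bases. Where the Hba-a1 probe lies is not known here, so its signal may include transcripts of both. The 250 bases before the start are shown for Hba-a1, the member with the largest difference, beside those of Alas2, the erythroid haem enzyme that was not detected, and Aqp1, the member with the most negative difference. All are on the plus strand of GRCm38.p6. The Hba-a1 window is chr11:32283422-32283671, that of Alas2 is chrX:150547167-150547416 and that of Aqp1 is chr6:55336049-55336298. Capitals mark matches on either strand to TGATAA or AGATAA (bound by GATA factors), CCNCNCCC (the CACC box of KLF factors, which can overlap itself) and CCAAT.
Hba-a1: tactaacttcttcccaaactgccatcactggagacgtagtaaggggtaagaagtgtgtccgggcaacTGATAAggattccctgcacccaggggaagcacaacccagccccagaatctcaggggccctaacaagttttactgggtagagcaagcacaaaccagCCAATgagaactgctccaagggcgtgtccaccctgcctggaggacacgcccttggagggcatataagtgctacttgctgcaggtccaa
Alas2: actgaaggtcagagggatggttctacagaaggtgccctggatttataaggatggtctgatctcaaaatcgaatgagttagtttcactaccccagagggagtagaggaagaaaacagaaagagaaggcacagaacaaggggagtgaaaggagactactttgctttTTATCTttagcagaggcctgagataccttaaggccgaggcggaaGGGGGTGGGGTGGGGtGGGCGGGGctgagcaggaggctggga
Aqp1: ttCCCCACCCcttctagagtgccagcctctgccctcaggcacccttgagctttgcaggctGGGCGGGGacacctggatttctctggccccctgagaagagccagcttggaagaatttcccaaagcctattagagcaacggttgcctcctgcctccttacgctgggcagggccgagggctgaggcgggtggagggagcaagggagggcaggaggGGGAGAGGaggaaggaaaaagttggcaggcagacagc

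The Hba-a1 window held TGATAA with its first base 183 bases before the start and CCAAT at 88. Alas2 held AGATAA on the opposite strand at 86 bases before the start and 4 CACC box matches between 42 and 19, of which the first 3 overlap and the fourth stands apart. The Aqp1 window held CACC box matches and neither GATA word. Windows were in the table for 27 of the 37 members, 34 windows in all. TGATAA or AGATAA stood in 13 of these (38.2%), against 16.6% of the 32851 windows of all genes. The CACC box stood in 61.8% of member windows and 45.9% of all, and CCAAT in 38.2% and 33.8%. The genes with a GATA word included both detected members, such as Klf1, Gfi1b and Hemgn, and undetected ones, such as Alas2, Rhd and Trim10. A match is a run of letters and does not show binding.

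The adult β-globin chain was read by Hbb-b1 (probe ILMN_1235372), with intensities of 579.6 and 730.9 in FLT3-ITD against 569.9 and 507.4 in pMIG. The groups were apart, but the lower FLT3-ITD array lay close to the higher pMIG array. The log2 difference was 0.37 (SE 0.14), a 1.29-fold higher level, and did not pass (adjusted p = 0.289). Its adjusted p was 0.0366 with the variance trend and robust fit, and in that fit it was over the threshold whichever array was left out (0.0718 to 0.384). Hbb-b2, which encodes the other β chain of its haplotype, was near background, at 104.4 and 95.9 in FLT3-ITD, against 102.9 and 113.8 in pMIG, and its groups overlapped. The β-globin genes are close relatives as well, so the signal of each β-globin probe is uncertain in the same way. Whether the Hba-a1 difference exceeds those of the β-globin probes was not tested.

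No transcription factor probe passed under any of the settings tried. Klf1, a zinc finger factor needed for β-globin expression, had an intensity of 136.5 and 148.3 in FLT3-ITD, against 162.5 and 165.5 in pMIG, and its log2 difference was -0.36 (SE 0.16, adjusted p = 0.350), or -0.19 without pMIG replicate 2. Gata1, the central factor of the erythroid and megakaryocyte lineages, was dim, at 109.8 and 122.4 in FLT3-ITD, against 134.8 and 117.2 in pMIG. Its groups overlapped (log2 difference -0.26, and -0.45 to -0.080 with any 1 array left out), and the other Gata1 probe went undetected throughout. For Gfi1b and Tal1 both FLT3-ITD arrays lay above both pMIG arrays. Gfi1b, a repressor required for erythroid and megakaryocyte development, averaged 8.56 ± 0.23 in FLT3-ITD and 8.24 ± 0.11 in pMIG (log2 signal, SD, n = 2 each; difference 0.32, adjusted p = 0.395), and the difference was 0.16 without FLT3-ITD replicate 2 and 0.49 without FLT3-ITD replicate 1. Tal1, a basic helix-loop-helix partner of GATA1, differed by 0.15, by 0.28 without FLT3-ITD replicate 1 and by 0.025 without FLT3-ITD replicate 2. Nfe2, a leucine zipper factor of erythroid cells and megakaryocytes, was the brightest and steadiest, with 11.87 on both FLT3-ITD arrays against 11.93 and 11.82 in pMIG and a difference of -0.01 (95% interval -0.31 to 0.30). Hemgn, a nuclear protein of blood progenitors, differed by 0.06 with overlapping groups.

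The brightest haem synthesis enzyme probes read slightly lower. Alas1, the first and rate-limiting enzyme outside the erythroid lineage, had intensities of 9576 and 10381 in FLT3-ITD, against 12703 and 11545 in pMIG. Both FLT3-ITD arrays lay below both pMIG arrays. The log2 difference of -0.21 (SE 0.11) did not pass (adjusted p = 0.413). Its adjusted p was 0.0358 with the variance trend and robust fit and 0.0640 with the trend alone. In the trend and robust fit it was over the threshold whichever array was left out (difference -0.24 to -0.18). Alad, which joins 2 molecules of aminolevulinic acid, differed by -0.16 and Urod, the uroporphyrinogen decarboxylase, by -0.10, each with the groups apart and neither called. Uros, the uroporphyrinogen synthase, differed by -0.28 on its brighter probe and by 0.07 on the other. Alad differed by -0.098 without pMIG replicate 1, and the brighter Uros probe by -0.13 without FLT3-ITD replicate 2 and -0.43 without FLT3-ITD replicate 1.

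The enzymes of the last steps were dimmer, with differences of either sign. Ppox, the protoporphyrinogen oxidase, had intensities of 311.2 and 322.5 in FLT3-ITD against 307.1 and 252.8 in pMIG on its brighter probe, a log2 difference of 0.31 (SE 0.12, adjusted p = 0.305). Its second probe, near background, differed by -0.06. Fech, the ferrochelatase that places iron in the ring, had 113.4 and 139.4 in FLT3-ITD against 107.1 and 107.5 in pMIG. The difference of 0.77 (SE 0.27, adjusted p = 0.271) came from 1 dim probe, was 0.24 without background correction, and ranged from 0.42 to 1.12 as each array was left out. The other 2 Fech probes did not pass the detection filter. Cpox, the coproporphyrinogen oxidase, differed by -0.08 on the only 1 of its 3 probes that was detected. Over the 9 detected enzyme probes the median difference was -0.08, with 2 probes apart upward, against 23.8% of all probes, and 4 downward, against 25.6%.

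**Figure D2:**
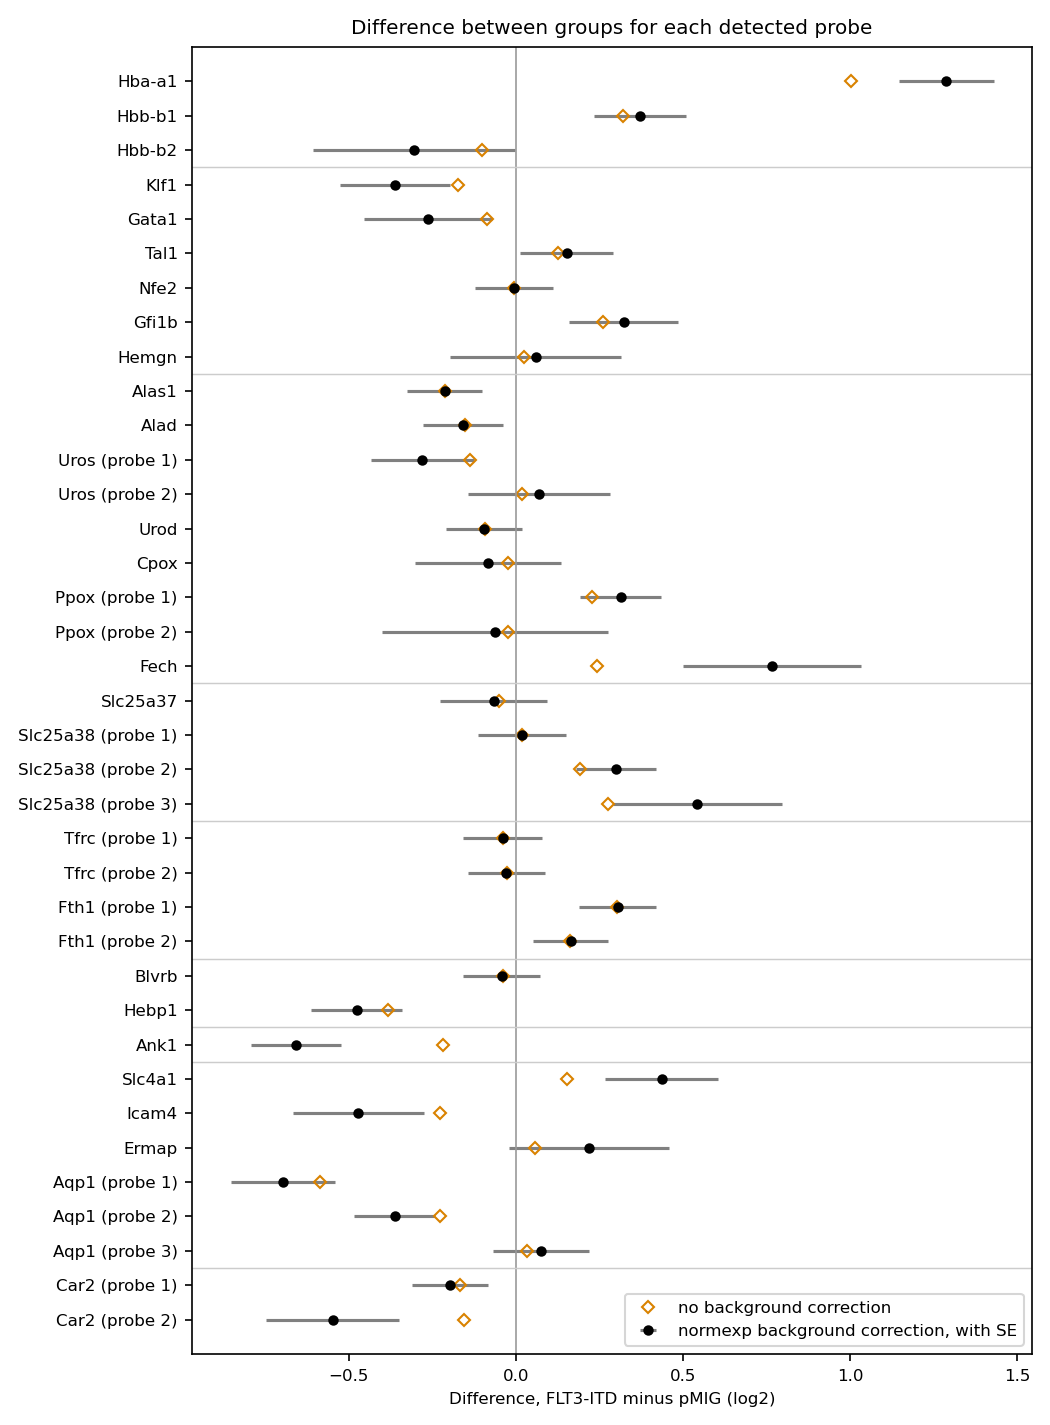
Difference between the groups, FLT3-ITD minus pMIG, on a log2 scale (horizontal axis) for each detected probe (rows, in blocks by role), with the standard error as a bar and the difference without background correction as an open diamond. Hba-a1 lies farthest to the right at 1.29 and an Aqp1 probe farthest to the left at -0.70; dim probes such as Fech, Ank1 and Slc4a1 shrink toward 0 without background correction.

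The carriers that feed the pathway inside the mitochondrion did not pass. Slc25a37, mitoferrin 1, which brings in iron, differed by -0.07 with overlapping groups. Slc25a38, which brings in glycine, was read by 3 probes that did not agree in size. Its brightest probe had 10.48 and 10.35 in FLT3-ITD against 10.31 and 10.48 in pMIG (log2 signal), a difference of 0.02. The other 2 probes differed by 0.30 and 0.54, each with the groups apart, and the larger rested on pMIG replicates at 6.55 and 5.86. Its difference was 0.89 without pMIG replicate 1 and 0.20 without pMIG replicate 2. With the trend and robust fit the third probe had an adjusted p of 0.140, and of 0.0198 without pMIG replicate 1.

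Tfrc, the transferrin receptor through which erythroid cells take up iron, had an intensity of 3048 and 3346 in FLT3-ITD, against 3541 and 3271 in pMIG, on its brighter probe. Its log2 difference was -0.04 (95% interval -0.35 to 0.27), and its second probe differed by -0.03. Fth1, the ferritin heavy chain that stores iron, had 25503 and 27253 in FLT3-ITD, against 21597 and 20339 in pMIG. Both FLT3-ITD arrays were above both pMIG arrays on each of its 2 probes, by 0.30 and 0.16 on the log2 scale. Neither probe passed in limma (adjusted p = 0.297 and 0.526). The brighter probe had an adjusted p of 0.00102 with the variance trend and robust fit and stayed under the threshold there whichever array was left out (0.00211 to 0.0400). That probe held the same rank on both FLT3-ITD arrays, so quantile normalization gave it the same value on both (14.67) and an SD of 0, which understates its spread.

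Of the genes that bind haem or act on its breakdown products, Hebp1, a cytosolic haem-binding protein, read lower. Its intensity was 325.8 and 381.7 in FLT3-ITD, against 543.9 and 414.4 in pMIG. The groups were apart, with a wide gap between the pMIG arrays. The log2 difference was -0.48 (SE 0.14), a 1.39-fold lower level, and it did not pass (adjusted p = 0.218). Its adjusted p was 0.0152 with the variance trend and robust fit and 0.0226 without background correction, and in the trend fit it stayed under the threshold only without pMIG replicate 2 (0.0196 to 0.202 over the 4 arrays left out). Blvrb, the biliverdin reductase first known from red cells, had 898.2 and 1028 in FLT3-ITD, against 1129 and 933.2 in pMIG, a difference of -0.04 (95% interval -0.34 to 0.26).

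The membrane genes gave the most negative difference in the group. Aqp1, the water channel of red cells that is also made by other cell types such as endothelium, had intensities of 433.7 and 390.6 in FLT3-ITD, against 697.4 and 583.2 in pMIG, on its brightest probe (ILMN_2756486). The FLT3-ITD arrays lay well below. The log2 difference was -0.70 (SE 0.16, 95% interval -1.11 to -0.29), a 1.62-fold lower level, and did not pass in limma (adjusted p = 0.188). With the variance trend and robust fit its adjusted p was 0.000326, and it stayed under the threshold there whichever array was left out (0.00219 to 0.0485). The 2 other Aqp1 probes differed by -0.36, with the groups apart, and by 0.07, with the groups overlapping, so 1 of the 3 probes of this gene carried the call in that fit.

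Icam4, an adhesion molecule of red cells that carries the Landsteiner-Wiener antigen in humans, had 132.1 and 157.1 in FLT3-ITD against 171.7 and 172.1 in pMIG and differed by -0.47 (adjusted p = 0.327), or by -0.28 without FLT3-ITD replicate 1. Ank1, the ankyrin that ties the spectrin skeleton to the membrane, had 98.1 and 92.4 in FLT3-ITD, not detected on either array, against 116.0 and 108.7 in pMIG, at least 1.51-fold lower in FLT3-ITD (adjusted p = 0.178), and its second probe did not pass the filter. Slc4a1, the band 3 anion exchanger, had 100.5 and 111.2 in FLT3-ITD, against 98.1 and 94.1 in pMIG, not detected on either pMIG array, at least 1.30-fold higher (adjusted p = 0.305). Ank1 and Slc4a1 sit so close to background that their differences were -0.22 and 0.15 without background correction. Ermap, a surface protein of the erythroid membrane, differed by 0.22 on 1 dim probe with overlapping groups. Car2, a carbonic anhydrase of red cells and other tissues, had 475.9 and 519.3 in FLT3-ITD against 641.2 and 521.7 in pMIG and differed by -0.20, and its dim second probe by -0.55, each with the groups apart and not called (adjusted p = 0.449 and 0.285). That second probe differed by -0.30 without pMIG replicate 1, and Slc4a1 by 0.24 without FLT3-ITD replicate 2.

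**Figure D3:**
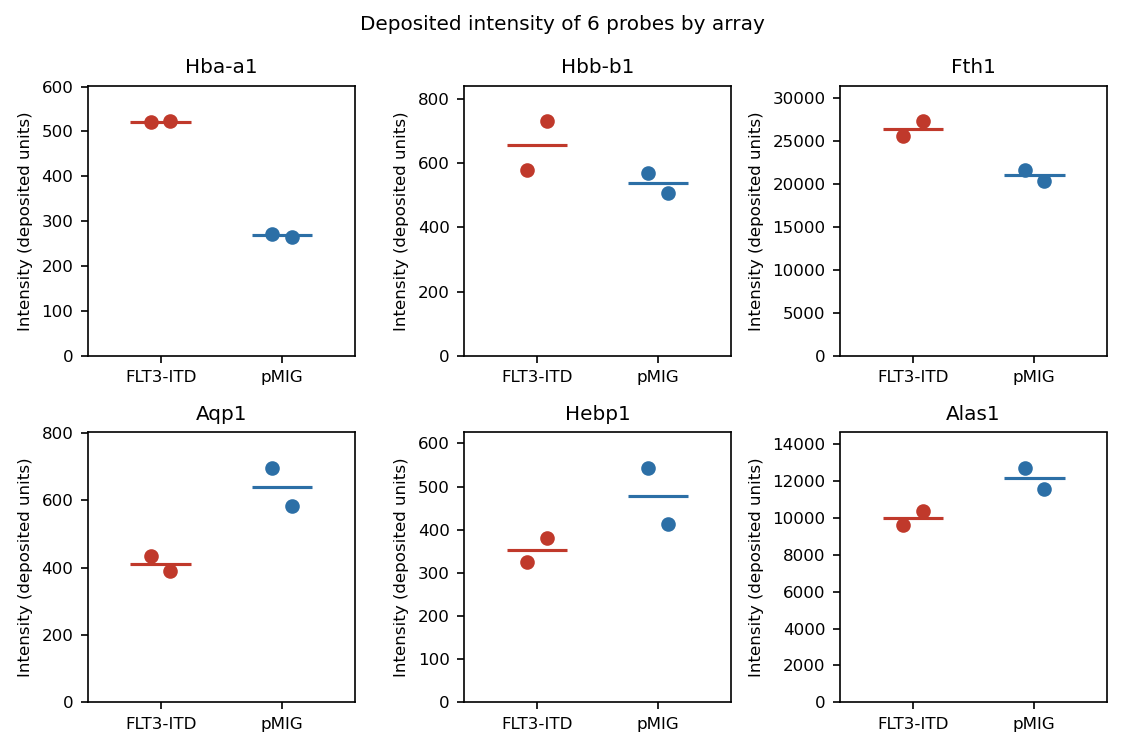
Deposited intensity before any correction (vertical axes, each from 0) of the 6 probes that passed in the trend and robust fit, with FLT3-ITD left of pMIG, a point per array and a line at the mean of 2 arrays. Hba-a1, Hbb-b1 and Fth1 are higher and Aqp1, Hebp1 and Alas1 lower in FLT3-ITD, with the closest approach of the groups for Hbb-b1 (579.6 in FLT3-ITD against 569.9 in pMIG).

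Other genes of the same processes were read from 7 lists holding 101 genes, of which 67 were detected. None passed in limma (0 of 67), and 8 had an unadjusted p under 0.05, against 16.7% of all probes. With the variance trend and robust fit 1 was higher and 3 were lower, against 8.34% of all probes called in either direction. The median difference over the 67 was 0.02. In the list on haem synthesis and transport, 2 of 6 detected genes were lower in the trend fit. These were Pgrmc1, a membrane protein that binds haem, at -0.78 (adjusted p = 0.0244 in that fit), and Slc48a1, a haem carrier of the lysosome, at -0.34 (0.0057). Bnip3l, which clears mitochondria from maturing reticulocytes, was the only 1 of 12 detected late erythroid genes called in that fit, at -0.40 (0.00338), and Stat5a, a signal transducer of the erythropoietin and FLT3 receptors, the only 1 of 16 detected regulators, at 0.44 (0.0156).

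The remaining lists held no call in either fit, and their members of largest difference are given as values. Of the embryonic globins, Hbb-bh1 was detected only in FLT3-ITD, where it was higher by at least 1.65-fold after background correction (adjusted p = 0.149). Its log2 difference was 0.24 without background correction, and it could pass the filter only through the FLT3-ITD group. Myoglobin, Mb, differed by 0.14. Of 15 detected iron handling genes, Tfr2, a second transferrin receptor of liver and erythroid cells, differed by -0.54 and Aco1, an iron regulatory protein, by 0.51. Of 13 detected membrane genes, Slc14a1, the urea transporter of red cells, differed by -0.64 (SE 0.28), with the groups apart. Sptb, the erythroid β-spectrin, differed by -0.36 (SE 0.45) with overlapping groups, and by -0.095 without background correction. In haem breakdown, Hmox1, the inducible haem oxygenase, differed by 0.21 and Blvra, a biliverdin reductase, by 0.13.

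Markers of other cell types were read on the same arrays, where the trend and robust fit called 4.34% of all probes higher and 4% lower. The marker lists were chosen with earlier results of these data known, so their counts are descriptions and no test of enrichment. The megakaryocyte list, for example, holds Alox12, whose log2 difference of -1.83 was the lowest of all probes tested. In the megakaryocyte and platelet list, 11 of 15 genes were detected and 6 were lower and 1 higher with the variance trend and robust fit, with summed signals of 2641 and 2853 in FLT3-ITD against 3590 and 3363 in pMIG. Of the mast cell and basophil list all 10 were detected, 6 were lower in that fit, and the sums were 13666 and 12722 in FLT3-ITD against 16670 and 15937 in pMIG. Sums here add signals off the log2 scale, so the brightest probes of each list weigh most. In the mast cell list these were Hdc, with a log2 difference of 0.08, and Prss34, with -0.83. The dendritic and MHC class II list had 5 of 8 detected genes higher, with sums of 13213 and 13275 in FLT3-ITD against 5360 and 5672 in pMIG. These 5 were the MHC class II pathway genes H2-Ab1, H2-Eb1, H2-Aa and Cd74, and Klrd1, an NK receptor gene (log2 difference 1.89). Itgax, Siglech and Zbtb46 of that list differed by -0.08, 0.17 and 0.30 and were not called. The B lymphoid list had 5 of 6 detected genes higher, with 1605 and 1686 in FLT3-ITD against 843.3 and 871.3 in pMIG. Of 13 detected stem and progenitor genes 3 were lower in that fit, with sums of 5040 and 4938 in FLT3-ITD against 5856 and 5928 in pMIG. Of 13 detected neutrophil and monocyte genes 3 were higher and 5 lower, with sums of 164984 and 164461 in FLT3-ITD against 164489 and 163571 in pMIG. Of the 2 detected genes of the T and NK list, Nkg7 was lower in that fit. Klrd1, the NK receptor gene read with the dendritic list, was higher. No marker passed in limma without the trend. Clec1b and Itgb3 in the megakaryocyte list, Flt3 in the dendritic list and Ms4a1 and Pax5 in the B lymphoid list were not detected. Gata1, Gfi1b, Nfe2 and Tal1 are used by megakaryocytes or mast cells as well, and Gata2, shared by mast cells and progenitors, differed by -0.00. The part of these cell types in the values of the erythroid genes was not tested.

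**Figure D4:**
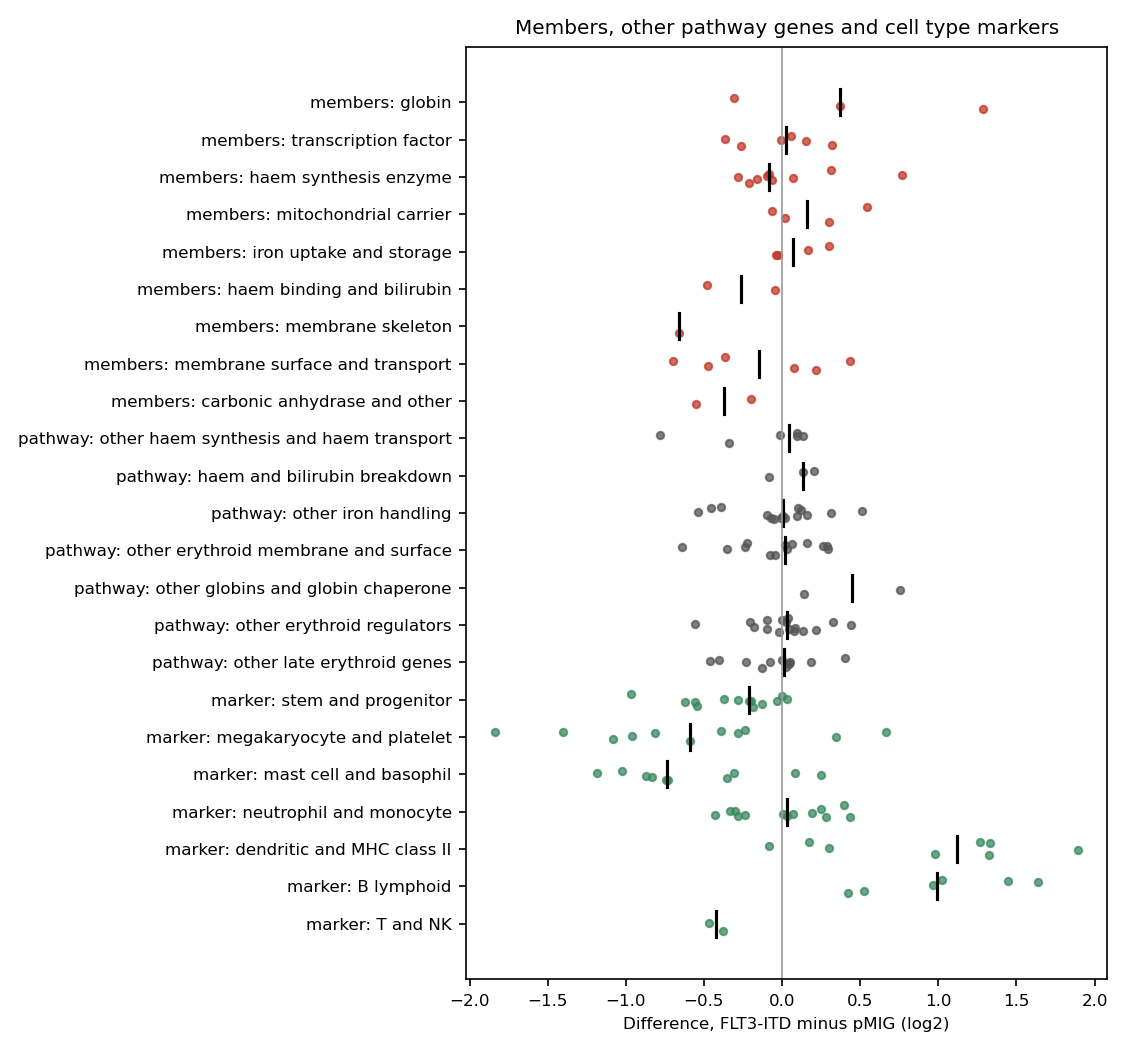
Difference between the groups, FLT3-ITD minus pMIG, on a log2 scale (horizontal axis) for the member probes by role (red), the brightest probe of other genes of the pathway (grey) and of markers of other cell types (green), with a black bar at each median. Medians of the pathway lists with more than 2 genes lie between 0.01 and 0.13, against -0.74 for mast cell and basophil markers and 1.12 for dendritic and MHC class II markers.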

How the data were processed

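The authors deposited a non-normalized intensity and a detection p-value for each probe of an Illumina bead array, per the file headers. RNA was extracted, checked on a Bioanalyzer and labelled as biotinylated cRNA, per the labels' protocols; scanner software is not given in the sources used here. A second deposited table holds log2 values of unstated making, which differed from those computed here by at most 0.232 and served as an alternative to them. Background was corrected with limma 3.58.1 in R 4.3.3 (normexp, moments from the detection p-values, offset 16), taken to log2 and quantile-normalized. Groups, taken from sample titles, were compared with limma's moderated test, two-sided, over 14178 probes; with 2 arrays a group, an exact permutation test has a smallest p of 0.333. A probe undetected on every array of a group is given as a lower bound, against the lowest detected signal per array. That bound holds for the background-corrected values and leaves out their spread. The number of arrays limits the precision. Gene names came from the platform annotation, in which 24279 probes had 1 gene and 2233 were not listed. Promoter sequences are RefSeq's (GRCm38.p6). The steps were tested on simulated data. Every member was named; other pathway genes were named where they passed in either fit, otherwise the 2 of largest difference per list. The members and lists were chosen with earlier results of these data known.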

Additional observations from a re-analysis of the deposited data

How the results depend on the processing

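Each result was recomputed under 15 alternative settings and 4 chosen after seeing the data (the variance trend and robust fit without each array in turn). The count of all probes called was 15 in the report and 963 without background correction, 408 with offset 50, 27 with cyclic loess, 45 with the deposited values, 85 where all 4 arrays detected the probe, 1183 with trend and robust, 1123 with trend alone and 7 with the replicate block. The count of member probes called was 0 in the report and 3, 2, 1, 6 and 5 without background correction, with offset 50, with detection on all 4 arrays, with trend and robust and with trend alone. Other pathway genes numbered 4 without background correction, with trend and robust and with trend alone, against 0. The cause was not tested. With an array left out, all probes called numbered 0 in the plain fit (1565 to 1813 at an unadjusted p under 0.05) and 409 to 984 with trend and robust, member probes 0 and 3 to 4, and pathway genes 0 and 1 to 6. The values 984 and 6 came without pMIG replicate 1, and 409 without FLT3-ITD replicate 2. The lone array of a group is then assumed to vary like the others. The replicate block, with same-numbered deviations correlated at -0.01, called 0 member probes. Hba-a1 passed under 5 of those 15 settings (difference 1.00 to 1.40), Aqp1 under 4, Hebp1 under 3, Fth1 and Hbb-b1 under 2 and Alas1 under 1. Of 37 member probes 25 kept their sign throughout; the other 12, none of them called, changed it only with an array left out: Ppox (second probe) -0.46 to 0.34, Slc25a38 (brightest) -0.070 to 0.10, Tfrc -0.10 to 0.020 and -0.068 to 0.010, Ermap -0.10 to 0.54, Hemgn -0.24 to 0.36, Cpox -0.32 to 0.15, Slc25a37 -0.23 to 0.096, Aqp1 (dimmest) -0.062 to 0.21, Nfe2 -0.061 to 0.048, Uros (second probe) -0.20 to 0.34 and Hbb-b2 -0.67 to 0.057.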
